A study of Homo sapiens with 18 samples.

Results

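The genes described here encode the AP-1 transcription factors *FOS*, *FOSB*, *FOSL1*, *FOSL2*, *JUN*, *JUNB*, *JUND*, *ATF3* and *BATF3*. They are the 9 rows of the counts table with these symbols, of 58815 genes in all, and were taken by symbol. All 9 had a high enough count in their highest library to be tested, as did 12287 genes in total. AP-1 is a dimer of basic leucine zipper proteins, in which a FOS, JUN, ATF or BATF family protein pairs with a JUN protein and binds DNA. FOS, FOSB, JUN, JUNB and ATF3 are known as immediate early genes that growth factors and stress induce for a short time. FOSL1, which encodes FRA-1, is known instead for sustained expression in mesenchymal-like, triple-negative breast cancer cells. BATF3 lacks a transactivation domain and is best known from dendritic cells.

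The libraries were made from sublines of MDA-MB-231, an established triple-negative breast cancer cell line, that had been passed through mice to colonize lung (LM2), brain (BrM3) or bone (BoM). Each line carried a doxycycline (DOX) inducible lentiviral hairpin as a pool of infected cells, either the control shCtrl or shWDR5-1 against *WDR5*, the WD40 scaffold of complexes that methylate histone H3 at lysine 4. Both arms received DOX at 1 μg/mL for 3 days, so that the control cells also had DOX and an expressed hairpin, and 1 hairpin per arm was sequenced. Each line had 3 shCtrl and 3 shWDR5 replicates harvested at different passages, which gives 18 libraries in 6 groups. The study asked how loss of WDR5 changes the transcriptome of metastatic cells, and the design implies a comparison of shWDR5 with shCtrl in each line and of the control lines with each other. These comparisons share the shCtrl libraries, and their p-values measure the spread between passages of the same infected cells.

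Total counts per library ranged from 17485841 to 119667013. *WDR5* itself, on the plus strand of chromosome 9 (GRCh38, 134135365 to 134159968), fell in every line. In normalized CPM, the count over the TMM-scaled library total (mean ± SD, n = 3), LM2 went from 125 ± 11.1 to 23.1 ± 2.25, BrM3 from 86.0 ± 6.93 to 21.9 ± 1.42 and BoM from 89.4 ± 1.69 to 19.0 ± 4.40. *VIM* at 1493 to 2231 CPM, *KRT8* at 194 to 447 CPM and *KRT18* at 263 to 501 CPM were abundant in all libraries. *ESR1* did not exceed 0.536 CPM and *PGR* 0.715 CPM, *KRT5* was at 0 in 11 libraries and *CDH1* did not exceed 0.600 CPM. Of the blood markers, *PTPRC* did not exceed 1.06 CPM, *CD68* 0.116 CPM and *HBB* 0.0770 CPM, and *CD3E* was at 0 in 14 and *HBA1* in 17 libraries. The vessel marker *PECAM1* lay between 0.847 and 4.67 CPM.

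*FOSL1* dominated the AP-1 transcripts of all 3 lines, and the genes most often used as AP-1 markers, *FOS* and *FOSB*, were nearly silent. Levels were compared between genes as RPKM, the CPM per kilobase of exon. *FOSL1* (chromosome 11, 65892049 to 65900573, minus strand) held between 135 ± 10.3 RPKM in BoM shCtrl and 269 ± 18.4 in LM2 shWDR5. *FOSL2*, the gene of FRA-2, was next in most groups with group means of 29.4 to 43.7 RPKM, and *JUN*, the classic JUN partner, followed with 15.3 to 47.6 RPKM. *JUN* exceeded *FOSL2* only in BrM3, at 36.2 ± 3.94 against 33.1 ± 3.21 RPKM in shCtrl and 47.6 ± 5.15 against 33.2 ± 4.69 in shWDR5, and in shCtrl the SDs of both genes overlapped.

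The other members were scarce. *JUND*, usually an abundant and steady JUN gene, had group means of 6.04 to 14.5 RPKM and *JUNB* of 1.81 to 7.69 RPKM. *BATF3* lay between 0.988 and 3.55, *ATF3* between 1.11 and 1.38, *FOS* between 0.848 and 1.10 and *FOSB* between 0.231 and 0.763 RPKM. *FOSB* rested on 21 to 258 counts per library and *FOS* on 40 to 389, so counting error is a larger part of their spread than for *FOSL1*, with 5356 to 52942 counts.

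Expressed as a share of the summed RPKM of the 9 genes, *FOSL1* made up 71.4% ± 1.13 in LM2 shCtrl and 75.3% ± 1.44 in LM2 shWDR5 (mean ± SD, n = 3). Its share was 62.7% ± 2.83 in BrM3 shCtrl and 68.3% ± 3.74 in BrM3 shWDR5, and 67.5% ± 2.11 and 74.3% ± 1.63 in the BoM groups. The sum itself ranged from 189 to 206 RPKM in BoM shCtrl, 254 to 271 in BrM3 shCtrl and 266 to 325 in LM2 shCtrl. With shWDR5 it ranged from 233 to 242, 277 to 355 and 338 to 392 RPKM, above every control library of the same line. Among JUN family genes, *JUND* held 5.56% ± 0.537 of the sum in BrM3 shCtrl and 2.84% ± 0.355 in BrM3 shWDR5, and 6.46% ± 1.502 and 3.56% ± 0.250 in BoM. These shares are a description, since a rise of *FOSL1* lowers the share of all others.

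**Figure D1:**
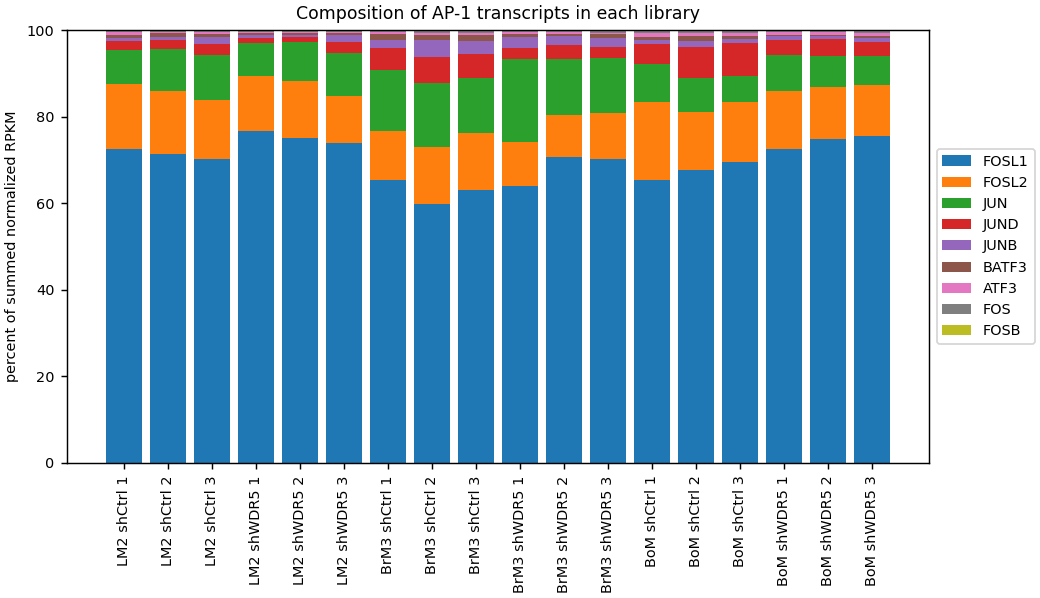
Share of each AP-1 gene, in percent of the summed normalized RPKM of the 9 genes, for each of the 18 libraries (x axis: line, hairpin and replicate). *FOSL1* is the largest part of every bar, with group means of 62.7% to 75.3%, followed by *FOSL2* and *JUN*, and *FOS* and *FOSB* form thin bands.

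JUN and ATF proteins bind promoters of their own family, and the 250 bases before the start of each gene were therefore searched for AP-1 and related sequences on both strands. The RefSeq table on GRCh38.p14 held such a window for 7 of the 9 genes, with none for *FOSL1* and *BATF3*. The windows of *JUN*, *JUND*, *JUNB* and *FOSB* are shown because these genes differed most between the control lines. Capitals mark a match to TGACATCA in *JUN* (chr1:58784048-58784297, minus strand, 67 to 60 bases before the start) and to TGACGTCA in *JUND* (chr19:18281623-18281872, minus strand, 200 to 193 bases before the start). The windows of *JUNB* (chr19:12791236-12791485, plus strand) and *FOSB* (chr19:45467746-45467995, plus strand) held none of the searched sequences.
JUN: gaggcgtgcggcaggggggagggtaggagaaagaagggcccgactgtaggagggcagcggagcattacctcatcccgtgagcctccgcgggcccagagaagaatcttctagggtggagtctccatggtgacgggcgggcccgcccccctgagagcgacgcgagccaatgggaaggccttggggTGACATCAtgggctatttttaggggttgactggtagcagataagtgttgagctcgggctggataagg
JUND: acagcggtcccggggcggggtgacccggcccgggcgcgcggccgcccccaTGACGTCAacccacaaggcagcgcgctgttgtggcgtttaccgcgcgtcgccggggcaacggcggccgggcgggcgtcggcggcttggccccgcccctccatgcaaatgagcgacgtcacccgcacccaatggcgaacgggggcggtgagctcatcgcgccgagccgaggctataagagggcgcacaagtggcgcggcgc
JUNB: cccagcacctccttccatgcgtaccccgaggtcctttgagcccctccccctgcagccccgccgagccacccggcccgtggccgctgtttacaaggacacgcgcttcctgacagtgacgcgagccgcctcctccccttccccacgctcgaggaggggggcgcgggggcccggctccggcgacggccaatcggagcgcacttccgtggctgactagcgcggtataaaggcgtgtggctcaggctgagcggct
FOSB: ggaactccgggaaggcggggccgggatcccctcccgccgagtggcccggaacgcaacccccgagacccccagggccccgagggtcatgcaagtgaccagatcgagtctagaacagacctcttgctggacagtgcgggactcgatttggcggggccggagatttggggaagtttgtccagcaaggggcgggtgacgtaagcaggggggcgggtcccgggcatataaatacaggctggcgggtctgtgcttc

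TGACATCA was present in 2.37% and TGACGTCA in 1.65% of all 35116 windows of this length. *ATF3* held TGACATCA 123 to 116 bases before the start of its upstream transcript. The AP-1 consensus TGAGTCA (4.2% of all windows), the E-box CACGTG (6.34%) and the CArG box to which SRF binds (1.16%) were in none of the member windows. A match describes letters in the window and not binding.

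*FOSL1* was higher in shWDR5 than in shCtrl in each line. In LM2 the 3 control libraries had 364, 430 and 431 CPM and the 3 shWDR5 libraries 496, 480 and 546 CPM. In BrM3 the controls had 320, 306 and 303 CPM and the shWDR5 libraries 335, 474 and 459 CPM. In BoM they had 233, 263 and 269 CPM against 318, 341 and 335 CPM. The 2 arms did not overlap in any line, and BrM3 shWDR5 replicate 1 was the library nearest to its controls.

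By edgeR's quasi-likelihood test with Benjamini-Hochberg adjustment, the log2 fold change of *FOSL1* was 0.38 (SE 0.11, adjusted p = 0.03116) in BoM and 0.45 (SE 0.11, adjusted p = 0.01574) in BrM3, and both passed the threshold of 0.05. In LM2 it was 0.31 (SE 0.11, adjusted p = 0.1143) and did not pass. Averaged over the 3 lines *FOSL1* rose by 0.38 on the log2 scale (SE 0.07, adjusted p = 0.0002535), and this call held when any 1 library was left out. The call in a single line rested on few libraries. In BrM3 it was lost without shCtrl replicate 2 (adjusted p = 0.05895) or 3 (0.06482) or shWDR5 replicate 2 (0.08934) or 3 (0.07921), with log2 fold changes of 0.36 to 0.44. In BoM it was lost without shCtrl replicate 1 (adjusted p = 0.1185) or 2 (0.06778) or shWDR5 replicate 2 (0.08661) or 3 (0.06822), with log2 fold changes of 0.32 to 0.40. In LM2, where it had not passed, it passed without BrM3 shWDR5 replicate 1 (adjusted p = 0.02789) in the shared fit.

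*BATF3* (chromosome 1, 212686417 to 212699840, minus strand) moved the other way. In BoM the control libraries had 3.52, 5.74 and 3.97 CPM and the shWDR5 libraries 2.44, 2.33 and 2.85 CPM. In BrM3 they had 8.29, 9.40 and 9.67 against 5.37, 5.69 and 7.39 CPM, and in LM2 5.36, 5.96 and 6.59 against 3.73, 3.87 and 5.51 CPM. The arms were apart in BoM and BrM3, and in LM2 the third shWDR5 library lay above the first control.

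The log2 fold change of *BATF3* was −0.81 (SE 0.20, adjusted p = 0.01229, edgeR) in BoM, where it passed. It was −0.55 (SE 0.19, adjusted p = 0.06564) in BrM3 and −0.48 (SE 0.19, adjusted p = 0.148) in LM2, and neither passed. Averaged over the lines it fell by 0.61 on the log2 scale (SE 0.11, adjusted p = 0.0004147), also when any 1 library was left out. Without BoM shCtrl replicate 2, the control with 5.74 CPM, the BoM change was −0.56 with an adjusted p of 0.09507. In BrM3 *BATF3* passed with DESeq2 (adjusted p = 0.04454), with the BrM3 groups fitted alone (0.04991) and with GC content removed (0.04462). It also passed without LM2 shWDR5 replicate 3 (adjusted p = 0.04563) or BoM shCtrl replicate 2 (adjusted p = 0.03778), neither of which is a BrM3 library. *BATF3* was counted 60 to 810 times per library.

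*JUND* (chromosome 19, 18279694 to 18281622, minus strand), a gene of a single exon, was lower in shWDR5 in most libraries. BrM3 had 24.8, 31.5 and 27.9 CPM in shCtrl and 13.7, 22.2 and 18.2 CPM in shWDR5. BoM had 17.3, 28.1 and 30.0 against 16.4, 17.5 and 14.9 CPM, and LM2 had 10.4, 12.7 and 14.6 against 7.06, 7.70 and 20.2 CPM. The arms were apart only in BrM3, and LM2 shWDR5 replicate 3 stood above every other LM2 library.

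No single line passed for *JUND*, with log2 fold changes of −0.63 (SE 0.30, adjusted p = 0.203, edgeR) in BrM3, −0.63 (SE 0.30, adjusted p = 0.1775) in BoM and −0.17 (SE 0.31, adjusted p = 0.8372) in LM2. With GC content removed the values were −0.29 in BoM (adjusted p = 0.4161) and −0.31 in BrM3 (adjusted p = 0.3885), and with no filter both passed (adjusted p = 0.002705 and 0.005953). With the replicate number as a block *JUND* passed in BoM (−0.59, adjusted p = 0.03852, edgeR) and also in BrM3. The average over the lines fell by 0.48 (SE 0.18, adjusted p = 0.04414). That call was lost when any of 13 of the 18 libraries was left out, with adjusted p-values up to 0.09451, and was kept without LM2 shCtrl replicate 1, LM2 shWDR5 replicate 3, BrM3 shCtrl replicate 1, BrM3 shWDR5 replicate 2 or BoM shCtrl replicate 1. Without LM2 shWDR5 replicate 3 the average was −0.68 (adjusted p = 0.0003524), and *JUND* then passed in BoM (adjusted p = 0.03886) and BrM3 (adjusted p = 0.04566). The average was −0.26 (adjusted p = 0.1543) once the dependence of each library on GC content was removed, and −0.44 (adjusted p = 0.05259) with filterByExpr, so the *JUND* call depended on both settings.

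*JUN* (chromosome 1, 58776845 to 58784048, minus strand) had 132, 145 and 116 CPM in BrM3 shCtrl and 194, 166 and 158 CPM in BrM3 shWDR5. In BoM the values were 60.4, 59.9 and 46.1 against 69.3, 62.9 and 57.1 CPM, and in LM2 77.2, 111 and 123 against 96.1, 110 and 140 CPM. The arms were apart in BrM3 and overlapped in the other lines. The log2 fold change was 0.39 (SE 0.17, adjusted p = 0.1458, edgeR) in BrM3, 0.18 (SE 0.17, adjusted p = 0.4942) in BoM and 0.15 (SE 0.17, adjusted p = 0.7032) in LM2. The average of 0.24 (SE 0.10, adjusted p = 0.05963) missed the threshold. It passed with DESeq2 (adjusted p = 0.03155), filterByExpr (0.03151), no filter (0.003382) and GC content removed (0.38, adjusted p = 0.00128), and without LM2 shCtrl replicate 3 (0.29, adjusted p = 0.029) or LM2 shWDR5 replicate 1 (0.28, adjusted p = 0.03563). In BrM3 alone, *JUN* passed with no filter (adjusted p = 0.01744), with the BrM3 groups fitted alone (0.04852) and with GC content removed (0.01145).

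The remaining members passed in no line. *FOSL2* differed between the arms by −0.03 in BoM, 0.01 in BrM3 and −0.01 in LM2 on the log2 scale (SE 0.11 in each). In the same order of lines *FOS* differed by −0.06, 0.02 and −0.13 (SE 0.19 in each) and *ATF3* by −0.03, 0.05 and −0.21 (SE 0.16 in each). *FOSB* differed by 0.25 in BrM3 (SE 0.17), −0.15 in LM2 (SE 0.19) and −0.15 in BoM (SE 0.20). *JUNB* differed by −0.26 in BoM (SE 0.47), −0.13 in LM2 (SE 0.43) and −0.13 in BrM3 (SE 0.42), and an SE of this size leaves room for changes as large as that of *BATF3*.

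By number, 0 of 9 members were called in LM2, where 6.34% of all tested genes were called, 1.5% higher and 4.84% lower, and 2 (*BATF3* and *FOSL1*) had an unadjusted p under 0.05. DESeq2 also called 0 members in LM2. In BrM3, 1 of 9 was called against a background of 11%, of which 2.94% were higher and 8.02% lower. BoM had 2 of 9 called against 16.2%, with 5.41% higher and 10.8% lower. Averaged over the lines, 3 of 9 were called against 35.6% of all tested genes, 1 member higher (*FOSL1*, background 15.7%) and 2 lower (*BATF3* and *JUND*, background 19.9%). The count of called members was thus near the background in each of these comparisons. A test of whether the response differed between the 3 lines called 0 members by edgeR, with a background of 0%, 0 members by DESeq2 and 0 members at an unadjusted p under 0.05. The larger change of *BATF3* in BoM, or of *FOSL1* in BrM3, was therefore not shown to differ from the other lines.

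**Figure D2:**
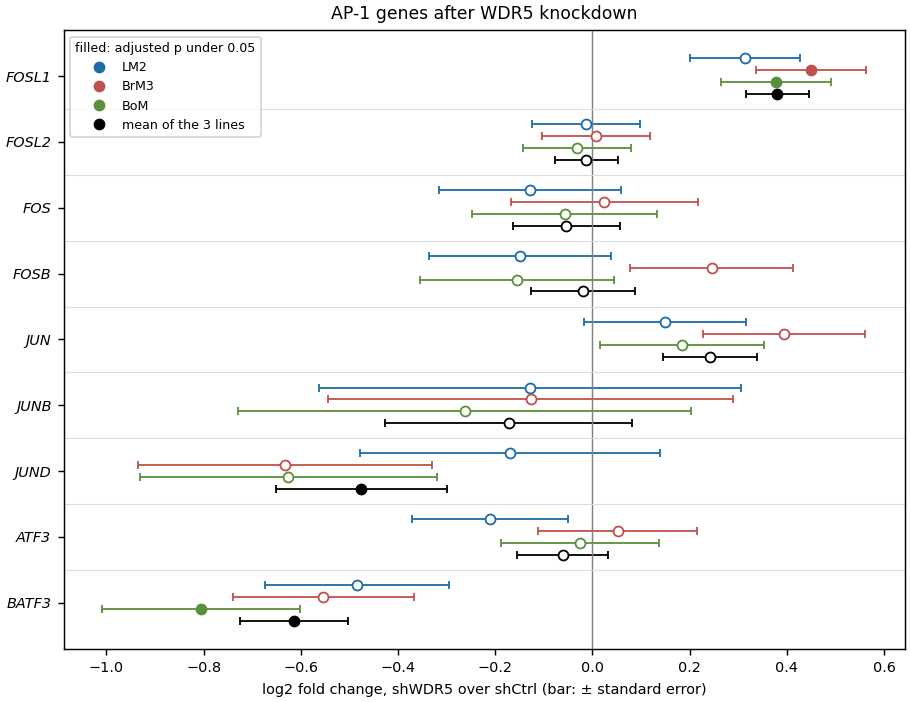
Log2 fold change of each AP-1 gene, shWDR5 against shCtrl, in LM2, BrM3 and BoM and averaged over the lines (points; bars are ± 1 SE; filled points have an adjusted p under 0.05 by edgeR). *FOSL1* lies to the right of 0 and *BATF3* to the left in all 3 lines, and *FOSL2* lies at 0.

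The control lines differed in several AP-1 genes. LM2 had the highest *FOSL1* and *FOSL2*, BrM3 the highest *FOSB*, *JUNB* and *BATF3*, and BoM the lowest *JUN*. In BoM against LM2, 4 of 9 members passed, 1 higher and 3 lower, with 51.8% of all tested genes called, 26% higher and 25.8% lower. In BrM3 against LM2, 6 of 9 passed, 4 higher (background 24.2%) and 2 lower (background 23.4%), with 47.6% called in all. In BoM against BrM3, 4 of 9 passed, 0 higher (background 17.8%) and 4 lower (background 19.7%), with 37.5% called in all. These counts were not far from what the backgrounds give for 9 genes, and the 3 comparisons share libraries.

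Among the FOS family, *FOSL1* was lower than in LM2 in BoM (log2 fold change −0.68, SE 0.11, adjusted p = 8.776e-05, edgeR) and in BrM3 (−0.40, SE 0.11, adjusted p = 0.007579), with 233 to 269 CPM in BoM, 303 to 320 in BrM3 and 364 to 431 in LM2 and no overlap between any of the lines. BoM and BrM3 differed by −0.28 (SE 0.11, adjusted p = 0.06252), which did not pass. That difference was −0.06 (adjusted p = 0.658) with GC content removed, and it passed with the groups fitted alone (−0.28, adjusted p = 0.01834) or without BrM3 shWDR5 replicate 1 (−0.28, adjusted p = 0.01408). *FOSL2* (chromosome 2, 28392448 to 28417317, plus strand) had 244, 199 and 203 CPM in BoM, 213, 258 and 240 in BrM3 and 286, 335 and 318 in LM2. LM2 stood above both other lines, with log2 fold changes of −0.40 for BrM3 (SE 0.11, adjusted p = 0.006464) and −0.54 for BoM (SE 0.11, adjusted p = 0.0006202) against LM2.

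*FOSB* (chromosome 19, 45467995 to 45475179, plus strand) had 3.14, 3.90 and 3.83 CPM in BrM3 shCtrl, 1.44, 1.37 and 1.51 in LM2 shCtrl and 1.82, 1.12 and 1.56 in BoM shCtrl. Every BrM3 control lay above every control of the other lines, with a log2 fold change of 1.33 over LM2 (SE 0.17, adjusted p = 7.68e-06). BoM was lower than BrM3 (log2 fold change −1.27, SE 0.18, adjusted p = 3.662e-05). *FOSB* met the filter on the highest count through BrM3 libraries alone, so the filter was not independent of these differences. Both also passed with filterByExpr and with no filter. *FOS* (chromosome 14, 75278826 to 75282230, plus strand), the founding member, did not pass between any lines, with 3.37, 3.37 and 3.82 CPM in BoM, 2.41, 2.93 and 2.77 in BrM3 and 2.87, 3.00 and 3.17 in LM2. With GC content removed *FOS* was higher in BoM than in BrM3 (0.54, adjusted p = 0.01491) and than in LM2 (0.41, adjusted p = 0.04128).

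Within the JUN family, *JUN* in BoM, at 46.1 to 60.4 CPM, lay below all LM2 and BrM3 controls. Its log2 fold change was −0.90 against LM2 (SE 0.17, adjusted p = 0.0002488) and −1.24 against BrM3 (SE 0.17, adjusted p = 2.257e-05). BrM3 against LM2 was 0.34 (SE 0.17, adjusted p = 0.1067) and passed without LM2 shCtrl replicate 3 (0.48, adjusted p = 0.0404). *JUNB* (chromosome 19, 12791486 to 12793315, plus strand), a single-exon gene, had 9.35, 19.3 and 13.5 CPM in BrM3, 2.95, 5.07 and 10.2 in LM2 and 2.96, 5.66 and 3.17 in BoM. BrM3 lay above BoM in all libraries (BoM against BrM3 −1.82, SE 0.44, adjusted p = 0.003992) and overlapped LM2.

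The *JUNB* difference between BrM3 and LM2 (1.16, SE 0.42, adjusted p = 0.03062) was lost without LM2 shCtrl replicate 1 (0.87, adjusted p = 0.1078) or 2 (1.04, adjusted p = 0.1031) or BrM3 shCtrl replicate 2 (0.87, adjusted p = 0.1381) or 3 (1.19, adjusted p = 0.05607), and with the groups fitted alone (adjusted p = 0.06519). The exons of *JUNB* overlap those of the antisense gene *HOOK2* over 259 bases, and the sources do not state whether counting used strand, so its level is uncertain to that extent.

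*JUND* was higher in BrM3 (1.15, SE 0.30, adjusted p = 0.004905) and in BoM (0.98, SE 0.30, adjusted p = 0.01196) than in LM2, and no LM2 control reached the lowest BoM control of 17.3 CPM. The BoM call was lost without BoM shCtrl replicate 3 (0.84, adjusted p = 0.05156). BoM and BrM3 did not differ in *JUND* beyond their spread (−0.16, SE 0.30, adjusted p = 0.6998), but the sign turned with GC content removed, to 0.77 with an adjusted p of 0.01794.

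*BATF3* was highest in BrM3, by 0.60 over LM2 (SE 0.18, adjusted p = 0.01206), and BoM was below BrM3 (log2 fold change −1.04, SE 0.19, adjusted p = 0.0003806). BoM against LM2 was −0.44 (SE 0.19, adjusted p = 0.06209) and passed without BoM shCtrl replicate 2 (−0.69, adjusted p = 0.00765) or LM2 shWDR5 replicate 3 (−0.44, adjusted p = 0.04278). *ATF3* (chromosome 1, 212565334 to 212620777, plus strand), a stress-induced gene that lies close to *BATF3* on the same chromosome, did not pass between any control lines, with 5.03 to 5.90 CPM in BoM, 4.29 to 4.55 in BrM3 and 4.79 to 6.42 in LM2.

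**Figure D3:**
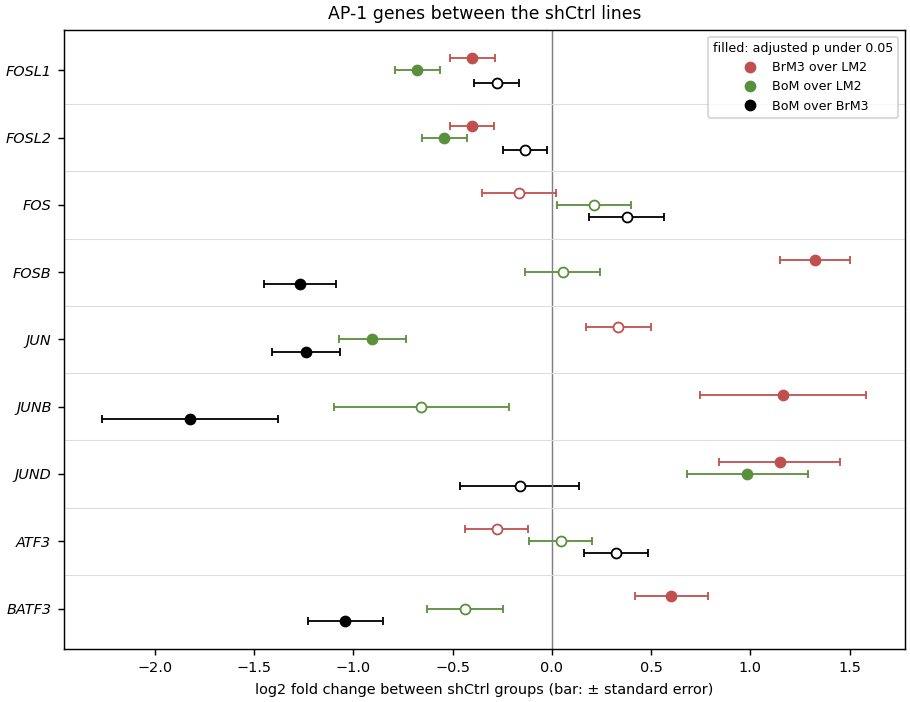
Log2 fold change of each AP-1 gene between the shCtrl libraries of the lines, BoM against LM2, BrM3 against LM2 and BoM against BrM3 (points; bars are ± 1 SE; filled points have an adjusted p under 0.05 by edgeR). *FOSB*, *JUNB* and *BATF3* are high in BrM3, *JUN* is low in BoM and *FOSL1* and *FOSL2* are high in LM2.

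Over all 6 groups, both hairpins of a line were neighbours in the order of levels for *FOS*, *FOSL2*, *JUN*, *JUNB* and *ATF3*. For *JUN* the order was BoM shCtrl, BoM shWDR5, LM2 shCtrl, LM2 shWDR5, BrM3 shCtrl and BrM3 shWDR5, and the only neighbours that differed were BoM shWDR5 and LM2 shCtrl (0.72, SE 0.17, adjusted p = 0.001367). For *FOSL2* both BoM groups came first and both LM2 groups last, and the step from BrM3 shWDR5 to LM2 shWDR5 passed (0.38, SE 0.11, adjusted p = 0.008628). *FOSB* rose between BoM shCtrl and BrM3 shCtrl, as given above, and *JUNB* between LM2 shCtrl and BrM3 shWDR5 (1.04, SE 0.42, adjusted p = 0.04647).

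*FOSL1* had both kinds of difference. From the lowest, its order was BoM shCtrl, BrM3 shCtrl, BoM shWDR5, LM2 shCtrl, BrM3 shWDR5 and LM2 shWDR5, and the step from BoM shWDR5 to LM2 shCtrl passed (0.30, SE 0.11, adjusted p = 0.02887). For *BATF3* the step from BoM shWDR5, the lowest group at 2.54 ± 0.274 CPM, to LM2 shWDR5 passed (0.76, SE 0.20, adjusted p = 0.004365). No neighbours differed for *FOS*, *JUND* or *ATF3*.

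**Figure D4:**
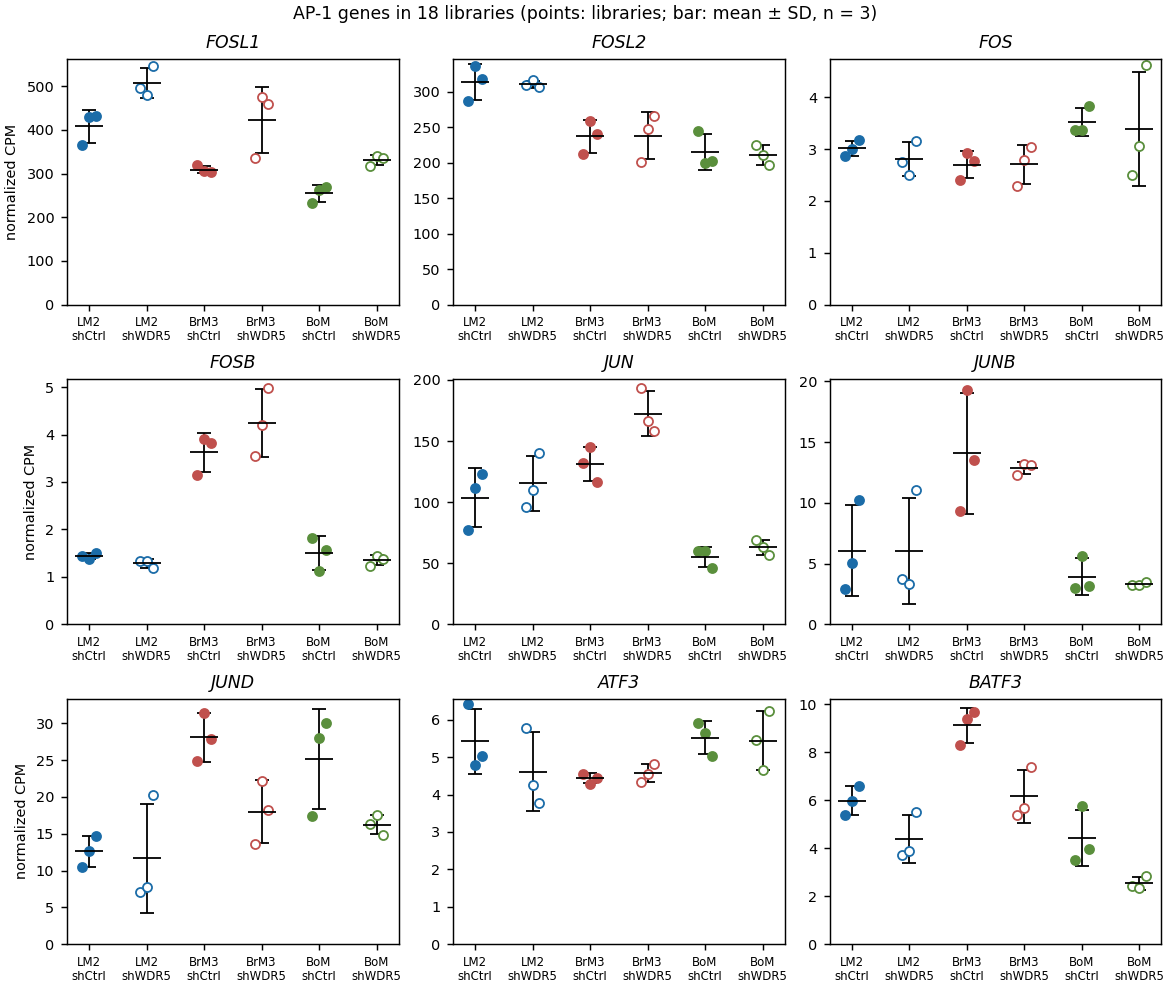
Normalized CPM of each of the 9 AP-1 genes (y axis from 0, a scale of its own in each panel) in the 6 groups. Points are libraries and bars the mean ± SD (n = 3). *FOSL1* is higher in shWDR5 in each line, and *FOSB* and *JUNB* are higher in both BrM3 groups than in both BoM groups.

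The GC content of the transcripts set some members apart. *JUND*, with 69.9% GC, lay at percentile 99.9 of the tested genes and *JUNB*, with 64.9%, at percentile 97.9, while *ATF3* (50.3%) and *BATF3* (50.4%) lay near the middle. The libraries differed in how counts depended on GC content, from a slope of −0.29 log2 units per 10% GC in BoM shWDR5 replicate 1 to 0.26 in LM2 shCtrl replicate 3. LM2 shWDR5 replicate 3, the library with 20.2 CPM of *JUND* and 11.1 CPM of *JUNB*, had a slope of 0.26 and 18108832 counts.

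Over the 18 libraries, which share lines, hairpins and depth, Pearson's r between the slope and the log2 CPM was 0.68 for *BATF3*, 0.63 for *JUNB*, 0.63 for *FOSL2*, 0.55 for *JUN*, 0.50 for *FOSL1*, 0.18 for *FOSB*, 0.16 for *JUND*, −0.01 for *FOS* and −0.45 for *ATF3*. In BoM the slope lay between −0.19 and 0.09 in shCtrl and between −0.29 and −0.18 in shWDR5. With GC content removed the average *FOSL1* change passed (0.52 on the log2 scale), as did that of *BATF3* (−0.56).

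**Figure D5:**
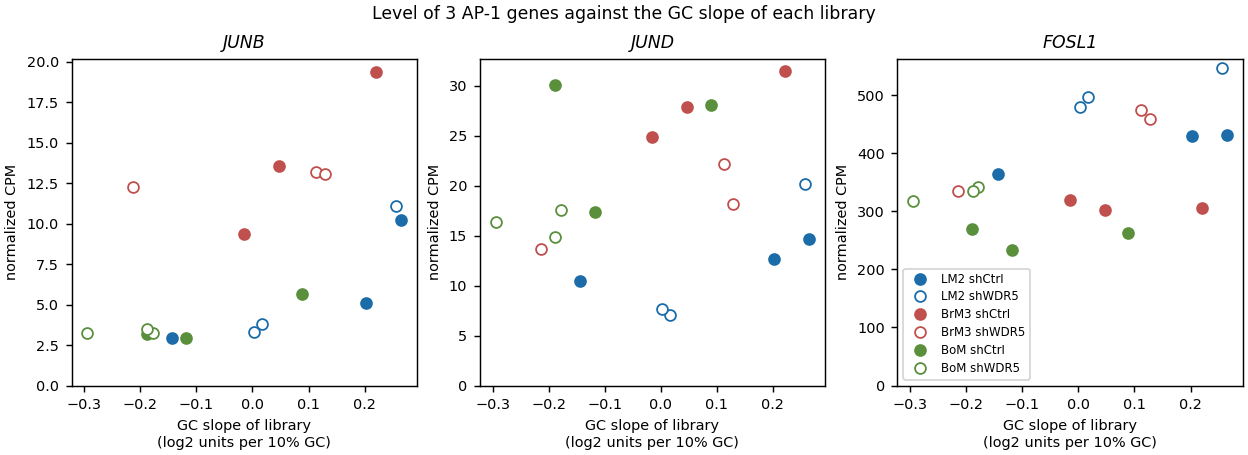
Normalized CPM of *JUNB*, *JUND* and *FOSL1* (y axes from 0) against the GC slope of each of the 18 libraries (x axis, log2 units per 10% GC), coloured by line, with open points for shWDR5. LM2 shCtrl replicate 3 and LM2 shWDR5 replicate 3, both with a slope of 0.26, have the highest *JUNB* of the LM2 libraries.

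Few of the other basic leucine zipper genes, which dimerize with or compete against AP-1, were called with shWDR5. Of 20 listed genes 16 were tested, and averaged over the lines 3 rose and 0 fell, with a median log2 fold change of 0.10 against 0.003 over all tested genes and a background of 35.6%. *DDIT3*, the stress-induced CHOP, rose by 0.65 (SE 0.09, adjusted p = 3.556e-05, edgeR), from 12.03 ± 0.786 to 21.4 ± 1.75 CPM in LM2 and from 16.8 ± 0.272 to 25.7 ± 7.49 CPM in BoM. *ATF7* rose by 0.28 (adjusted p = 0.004248) and *CEBPG* by 0.20 (adjusted p = 0.005527). In single lines *DDIT3* passed in LM2 (adjusted p = 0.003883) and BoM (adjusted p = 0.0123) and was at 0.05015 in BrM3.

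Of 30 kinases and regulators upstream of AP-1, 29 were tested, and 5 rose and 4 fell in the average over the lines, with a median of 0.04. These 9 of 29 stand against 35.6% of all tested genes. *MAP2K6*, a kinase that activates p38, fell by 0.89 (SE 0.09, adjusted p = 8.858e-07), and the group means of shCtrl and shWDR5 were 3.76 ± 0.498 and 1.69 ± 0.226 CPM for BoM, 3.76 ± 0.0570 and 1.83 ± 0.192 for BrM3, and 6.47 ± 0.596 and 4.61 ± 0.516 for LM2. Its change passed in each line. *MAP2K3*, the other main p38 kinase, rose by 0.28 (adjusted p = 0.002043). *MAP2K5*, which activates ERK5, fell by 0.33 (adjusted p = 0.0003388), as did *RPS6KA1*, by 0.28 (adjusted p = 0.008085), and *MEF2D*, by 0.24 (adjusted p = 0.02099).

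The other immediate early genes are induced by the same signals as *FOS* and *JUNB*. Of 31 listed, 23 were tested, and 11 rose (background 15.7%) and 3 fell (background 19.9%) in the average, with a median of 0.16. *PPP1R15A*, the stress phosphatase subunit GADD34, rose by 0.63 (SE 0.07, adjusted p = 2.825e-06) and passed in each line. *TRIB1* rose by 0.48 (adjusted p = 6.259e-06), *GADD45B* by 0.45 (adjusted p = 0.01465) and *KLF4* by 0.33 (adjusted p = 0.0004871), while *RHOB* fell by 0.64 (adjusted p = 0.0003067). Of the AP-1 members in the same class, *FOS*, *FOSB*, *JUNB* and *ATF3* did not pass in the average. *JUN* (0.24, adjusted p = 0.05963, edgeR) missed the threshold there. It passed in all 6 alternative settings and in 2 of 18 fits with 1 library left out.

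Of 37 genes known as AP-1 targets, 33 were tested, and 8 rose and 5 fell in the average, with a median of 0.05. These 13 of 33 stand against 35.6% of all tested genes. *PLAUR*, the gene of the urokinase receptor, rose by 0.43 (SE 0.07, adjusted p = 0.0002418), and the 5 called targets with the largest changes fell. *PLAU*, the gene of urokinase, fell by 0.71 (SE 0.05, adjusted p = 2.206e-08), and it passed in each line. BrM3 went from 482 ± 21.1 to 286 ± 13.96 CPM, LM2 from 417 ± 16.9 to 284 ± 19.9 CPM and BoM from 154 ± 4.31 to 86.6 ± 9.48 CPM. The cytokine genes *IL6* (−0.63, adjusted p = 0.004966), *IL1B* (−0.59, adjusted p = 0.0257) and *IL11* (−0.50, adjusted p = 0.0001851) and the cyclooxygenase gene *PTGS2* (−0.48, adjusted p = 0.03401) fell too in the average. Of single lines, *IL6* passed in LM2 alone (−1.03, adjusted p = 0.01696, edgeR) and was −0.14 in BoM (adjusted p = 0.7428). *IL11* passed in BoM and BrM3, and *IL1B* and *PTGS2* passed in no line. Over the 4 lists, 0 genes passed the edgeR test for a difference of the response between lines, and 2 had an unadjusted p under 0.05.

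Between the control lines, 27 of 33 tested AP-1 targets differed in BrM3 against LM2, where 47.6% of all genes were called. Of these, 11 were higher (background 24.2%) and 16 lower (background 23.4%). In BoM against LM2, 20 of 33 differed (background 51.8%), 6 higher (background 26%) and 14 lower (background 25.8%). In BoM against BrM3, 20 of 33 differed (background 37.5%), 11 higher (background 17.8%) and 9 lower (background 19.7%). *IL1B* was lower than in LM2 in BoM (−4.24, SE 0.36) and in BrM3 (−2.76, SE 0.33), from 75.5 ± 24.8 CPM in LM2 to 11.1 ± 1.92 in BrM3 and 3.86 ± 2.17 in BoM. The chemokine gene *CCL2* had 74.7 ± 19.98 CPM in BoM, 3.71 ± 0.681 in BrM3 and 0.624 ± 0.350 in LM2. *EREG*, the gene of the EGFR ligand epiregulin, had 14.7 ± 2.61 CPM in BoM, 7.90 ± 0.394 in BrM3 and 76.1 ± 12.5 in LM2. *CCL2* was thus highest in BoM, and *IL1B* and *EREG* were highest in LM2.

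The upstream list had 15 of 29 genes called in BoM against LM2, where 51.8% of all tested genes were called. Of the 15, 12 were lower (background 25.8%) and 3 higher (background 26%). *MEF2A* (−1.09, SE 0.10) and *ELK1* (−1.05, SE 0.15) were among the lower. In BrM3 against LM2, *MAPK14*, the gene of p38α, was higher (0.92, SE 0.09), with 343 ± 14.5 CPM in BrM3 and 182 ± 15.1 in LM2. Among other immediate early genes, *RHOB* was lower than in LM2 in BoM (−2.29, SE 0.19) and BrM3 (−1.53, SE 0.18), and *CCN1* was higher in both (1.12 and 1.03, SE 0.10 each). The partners differed least, with 3 of 16 called in BoM against LM2 (background 51.8%), and *JDP2*, a repressor that pairs with JUN, was highest in BrM3 (0.50 over LM2, SE 0.12, adjusted p = 0.003129).

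Epithelial markers moved with the same arms. Of 10 listed 7 were tested, and with shWDR5 5 fell in BoM (background 10.8%), 4 in BrM3 (8.02%) and 1 in LM2 (4.84%), and 0 rose in a single line. In the average 5 fell and 1 rose (*KRT18*, 0.20, adjusted p = 0.03528). *PECAM1*, the only blood or vessel marker tested, rose in LM2 (0.71, adjusted p = 0.03235) and in the average (0.41, adjusted p = 0.01192). BoM had an *EPCAM* change of −0.60 (adjusted p = 0.003474) and BrM3 of −0.77 (adjusted p = 0.0009063), and *CLDN7* fell in each line. Mesenchymal markers did not pass in any line (0 of 5 tested by edgeR, with 1 at an unadjusted p under 0.05 in LM2). Nor did hormone receptor genes (0 of 3, with 2 at an unadjusted p under 0.05 in BoM). Over all tested genes 6.34% were called in LM2, 11% in BrM3 and 16.2% in BoM. For so few genes these counts of 0 lie near the background. In the average 1 of 5 mesenchymal markers rose (*VIM*, 0.20, adjusted p = 0.01111, edgeR, background 15.7%) and 0 fell. Hormone receptor genes had 0 of 3 called in the average (background 35.6%). The part of these markers in the changes of *FOSL1* and *BATF3* was not tested, and in bulk RNA fewer cells of a kind and less RNA per cell cannot be told apart.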

How the data were processed

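RNA of 18 libraries was sequenced (TruSeq stranded mRNA). The authors deposited raw counts per gene, made from reads aligned to hg38 with STAR 2.7.0 after base calling with CASAVA 1.8.2, with no normalization, and the strand setting of the counting is not given in the sources used here. The deposited fold changes and p-values of the authors' own comparisons (DESeq2) were not used. Spike-ins were added, but the table holds 0 spike-in rows, so changes are relative to TMM scaling. Groups and replicate numbers come from the sample titles. The source labels name another organ for most libraries, and the cell line label reads BrM2 where the study writes BrM3. In the column codes the hairpin that is not shWDR5 was read as shCtrl by elimination. There were 0 per-sample columns left unused.

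Counts were fitted with edgeR 4.0.16 (R 4.3.3), quasi-likelihood, 6 groups in a single fit with 12 residual degrees of freedom and no replicate block. HTSFilter's criterion was recomputed, and 12287 genes with a highest normalized count above 130.3 were tested. P-values were adjusted by Benjamini-Hochberg over these genes and called under 0.05. Standard errors were derived from the F statistic. CPM is the count scaled to the TMM-adjusted library total, and RPKM divides it by the GENCODE v44 exon length on GRCh38. Replicate pairs differed by a chi-square per gene of 5.09 to 89.2, so none looked like 1 library deposited again. Total counts limit the precision of scarce members. The fit was also run on simulated counts with known hairpin changes. Those counts held no differences between lines and no GC dependence of libraries, so they do not cover these features. Their outcome is not reported here.

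The labels give replicate numbers. Deviations of same-numbered shCtrl and shWDR5 libraries correlated by 0.55, 0.32 and 0.16 in BoM and by 0.57, 0.04 and 0.72 in LM2. In BrM3 the values were 0.53, 0.50 and −0.17. The main fit held no block in any line, so its p-values take no account of such pairing.

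Alternatives were DESeq2 1.42.0, filterByExpr (18428 genes), no filter (41236 genes), the replicate block, the contrast's groups alone, removal of GC content with and without the block, and leaving out each library. For the removal, a loess curve (span 0.5) was fitted to log2 CPM at prior count 2. That curve entered the edgeR quasi-likelihood fit as an offset. For 99.8% of the genes tested a GC content was at hand.

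The members and the lists (bZIP partners, upstream regulators, immediate early genes, AP-1 targets, and epithelial, mesenchymal, hormone receptor, and blood and vessel markers) were chosen with earlier results of these data known. Besides the members and WDR5, the text names per list the up to 5 genes called with the largest mean change and up to 4 per control contrast, shortened to those described, and for each member the 2 genes of highest Pearson's r. PLAUR and the markers were named after their values were seen.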

Additional observations from a re-analysis of the deposited data

How the results depend on the processing

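The cause of each change below was not tested. The number of AP-1 members called changed as follows. In LM2 it was 1 with GC content removed and 3 with GC content removed and the replicate block, against 0. In BrM3 it was 2 with DESeq2, 3 with no filter, 4 with the replicate block, 3 with the groups of the contrast alone, 3 with GC content removed and 3 with GC content removed and the block, against 1. In BoM it was 0 with the groups of the contrast alone, against 2, where *FOSL1* had an adjusted p of 0.05073 and *BATF3* of 0.05918 (edgeR). Leaving out each library gave 0 to 1 in LM2, 0 to 3 in BrM3, 0 to 3 in BoM and 2 to 3 for the average, and for the control lines 3 to 5 (BoM against LM2), 5 to 7 (BrM3 against LM2) and 4 to 5 (BoM against BrM3). With the contrast's groups alone the average and the difference between lines could not be fitted.

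Signs turned for small changes. In LM2, *FOSL2* was 0.001 with DESeq2, 0.018 with filterByExpr, 0.0007 with no filter, 0.025 with GC content removed and 0.026 with the block added, and *JUNB* 0.025 with both. With GC content removed, and then with the block added, *JUNB* in BrM3 was 0.16 and 0.16, and in BoM *FOS* was 0.13 and 0.088, *FOSB* 0.033 and 0.029, *FOSL2* 0.077 and 0.082, *JUNB* 0.065 and 0.086 and *ATF3* 0.048 and 0.035. The averages were then 0.079 and 0.057 for *FOS*, 0.12 and 0.10 for *FOSB*, 0.058 and 0.060 for *FOSL2* and 0.065 and 0.089 for *JUNB*. The average of *FOSL2* was 0.0024 with DESeq2, 0.021 with filterByExpr and 0.012 with no filter, and that of *FOSB* 0.013 and 0.0041 with the last 2. Between control lines, *ATF3* in BoM against LM2 was −0.0046 and −0.0037, and *JUND* in BoM against BrM3 0.77 and 0.78.

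Leaving out single libraries, these ranges crossed 0. In LM2 they were −0.023 to 0.29 for *JUN*, −0.074 to 0.038 for *FOSL2*, −0.83 to 0.48 for *JUNB* and −0.78 to 0.096 for *JUND*. In BrM3 they were −0.073 to 0.11 for *FOS*, −0.079 to 0.12 for *FOSL2* and −0.35 to 0.17 for *JUNB*. In BoM they were −0.35 to 0.042 for *FOSB*, −0.086 to 0.072 for *FOSL2*, −0.13 to 0.073 for *ATF3*, −0.45 to 0.12 for *JUNB* and −0.34 to 0.13 for *FOS*. For the average they were −0.041 to 0.027 for *FOSL2*, −0.41 to 0.030 for *JUNB*, −0.083 to 0.050 for *FOSB* and −0.15 to 0.0095 for *FOS*, and for control lines −0.035 to 0.17 (*ATF3*) and −0.15 to 0.25 (*FOSB*) in BoM against LM2 and −0.31 to 0.053 (*JUND*) in BoM against BrM3.

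Same-numbered shCtrl and shWDR5 libraries correlated in their deviations by −0.17 to 0.72 (mean 0.36, other numbers −0.19). All 3 BoM numbers were above 0.1 (0.55, 0.32 and 0.16), while LM2 replicate 2 (0.04) and BrM3 replicate 3 (−0.17) were not. LM2 replicates 1 (0.57) and 3 (0.72) correlated more strongly than any BoM number, and BrM3 replicates 1 and 2 had 0.53 and 0.50. Whether the numbers pair the libraries in LM2 and BrM3 cannot be told from these values. With the replicate block *JUND* passed in BoM (−0.59, adjusted p = 0.03852) and BrM3 (−0.65, 0.02911), *JUN* (0.40, 0.007487) and *BATF3* (−0.57, 0.01746) passed in BrM3, and the average of *JUN* passed (0.25, 0.001398). Between control lines *BATF3* in BoM against LM2 (−0.42, 0.03279) and *FOSL1* in BoM against BrM3 (−0.28, 0.02614) passed. The block alone changed no other call of a member (edgeR). Depth limits the members with few counts, *FOSB*, *FOS*, *ATF3*, *BATF3* and *JUNB*.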

Other observations

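The genes whose log2 CPM followed each member most closely over the 18 libraries were, by Pearson's r, *GNB1* (0.93) and *PKM* (0.92) for *FOSL1*, *ELMSAN1* (0.97) and *IL4R* (0.95) for *FOSL2*, *SLITRK2* (0.97) and *ITGBL1* (0.97) for *FOSB*, and *GSTK1* (0.85) and *PIP4P1* (0.84) for *FOS*. For the JUN genes they were *VGLL4* (0.98) and *G0S2* (0.95) for *JUN*, *ERF* (0.97) and *PPP1R13L* (0.97) for *JUNB*, and *REX1BD* (0.91) and *CERS4* (0.91) for *JUND*. For *ATF3* they were *TTF2* (0.78) and *MTFR2* (0.75), and for *BATF3* *FCGRT* (0.98) and *SMPD1* (0.96). The libraries share lines and hairpins, and these values are a description of the highest of 12287 correlations. The highest r of *FOS* and *ATF3*, the members with no called difference between arms or control lines, were lower than those of the other members.

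Among the members themselves, the highest r over the 18 libraries was 0.83 between *JUN* and *JUNB*, followed by 0.81 between *JUNB* and *BATF3*, 0.75 between *FOSB* and *JUNB* and 0.71 between *FOSL1* and *FOSL2*. The lowest was −0.66 between *JUN* and *ATF3*, and *JUNB* and *ATF3* had −0.64. *FOSL1* and *FOSL2* were both highest in LM2, and *FOSL1* was called for shWDR5 in BrM3 and BoM where *FOSL2* was not.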
